A study of Homo sapiens with 12 samples.

Results

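Transcripts for the nuclear-encoded parts of the oxidative phosphorylation (OXPHOS) machinery were followed in MDA-MB-231 cells, an established line of triple-negative, mesenchymal-like human breast cancer. The members were the features of the expression table whose names begin with NDUFA, NDUFB, NDUFC, NDUFS or NDUFV and a digit, with UQCR or UQCC, with COX4 to COX8 or with ATP5, or are SDHA, SDHB, SDHC or SDHD, and whose mean over the 6 WT libraries was at least 1 FPKM. FPKM, fragments per kilobase of transcript scaled to the mapped fragments of a library, was the unit of the table. Of 24331 features, 89 matched the names and 78 passed the limit: 36 belonged by name to complex I, 4 to complex II, 9 to complex III, 12 to complex IV and 17 to complex V. The cells were WT or KO at 0, 6 or 24 h of PMA/Ionomycin, with 2 libraries for each genotype and time and 12 in all. KO cells lack a CRISPR/Cas9-deleted stretch of the core-regulatory element (CRE) in the promoter of ETS1, a transcription factor. PMA is a phorbol ester that activates protein kinase C, and Ionomycin carries calcium into cells. Whether the KO libraries come from 1 clone is not given in the sources used here, so the deletion and a clone cannot be told apart. WT and KO cells are of the same line, and no other allele is named.

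The respiratory chain sits in the inner mitochondrial membrane. Complex I oxidises NADH, complex II (succinate dehydrogenase) oxidises succinate within the citric acid cycle, complex III passes electrons from ubiquinol to cytochrome c, and complex IV (cytochrome c oxidase) passes them to oxygen. The proton gradient so made drives complex V, the ATP synthase. All but complex II also hold subunits encoded in mitochondrial DNA, which were not analysed here. Nuclear genes for the subunits are widely expressed, and NRF1, the ETS-family factor GABPA and YY1 are known to bind many of their promoters. Some names within the rule are not core structural subunits: UQCC (UQCC1) is an assembly factor for cytochrome b of complex III, COX7A2L is a supercomplex factor, ATP5S (DMAC2L) and ATP5SL (DMAC2) are related to assembly, and NDUFA4, counted here with complex I by its name, is now placed in complex IV.

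ETS1, the targeted gene, was at 24.0 and 23.7 FPKM in the WT libraries at 0 h, 139 and 145 at 6 h and 36.2 and 39.7 at 24 h, against 16.5 FPKM in KO 0 h replicate 2, 62.8 and 62.2 in KO at 6 h and 29.3 and 30.7 in KO at 24 h. Every KO library lay below both WT libraries of its time. The library labelled KO 0 h replicate 1 had ETS1 at 5.08 FPKM and stood apart: EPCAM was at 1139 FPKM there and at most 3.38 in the other 11 libraries, and all 10 markers of gut epithelium (VIL1, CDX1, CDX2, LGALS4, KRT20, CDH17, PHGR1, REG1A, TFF3 and MUC13) lay at 32.3 to 4722 FPKM, against at most 2.53. In the other 11 libraries the 6 markers of MDA-MB-231 cells (VIM, ITGB1, PLAUR, CAV1, CD44 and AXL) were all present, from 46.6 FPKM (AXL) to 2539 FPKM (VIM, vimentin), and of 7 epithelial and luminal genes ESR1, PGR, CDH1 and KRT20 were at or near 0 and EPCAM, GATA3 and FOXA1 did not pass 3.38 FPKM. All 6 markers of MDA-MB-231 cells were also present in KO 0 h replicate 1, at 51.1 to 1199.5 FPKM. Sums of FPKM ran from 566255 to 651080 in these 11 libraries and reached 1423335 in KO 0 h replicate 1. The latter library was kept out of every fit and is shown apart, so that KO 0 h rests on 1 library, whose variation is assumed to be like that of the other groups. FPKM values keep no read totals, so the depth is unknown.

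Among the 78 members, the mean over the 6 WT libraries ranged from 5.68 FPKM (ATP5S) to 1372 FPKM (ATP5E, the epsilon subunit of ATP synthase), with a median of 135 FPKM. Complex IV had the highest median of its members, 412 FPKM, followed by complex V at 218, complex III at 118, complex I at 104 and complex II at 74.8 FPKM. The member with the highest WT level was NDUFA13 in complex I (531 FPKM), SDHB in complex II (133 FPKM), UQCRH in complex III (746 FPKM), COX7C in complex IV (829 FPKM) and ATP5E in complex V. The lowest were NDUFA10 (14.8 FPKM), SDHC (30.8 FPKM), UQCRB (45.3 FPKM), COX7A2L (91.5 FPKM) and ATP5S in the same order. UQCRH is the hinge protein that helps dock cytochrome c, SDHB carries the iron-sulphur clusters of succinate dehydrogenase, and COX7C is a small membrane subunit of cytochrome c oxidase. The ATP5E feature also bears the name SLMO2 in the table, and the ATP5J2 feature bears the names ATP5J2-PTCD1 and PTCD1, so that these levels may hold reads of other genes. Many of these genes have near-identical processed pseudogenes, and how shared reads were counted is not given in the sources used here.

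**Figure D1:**
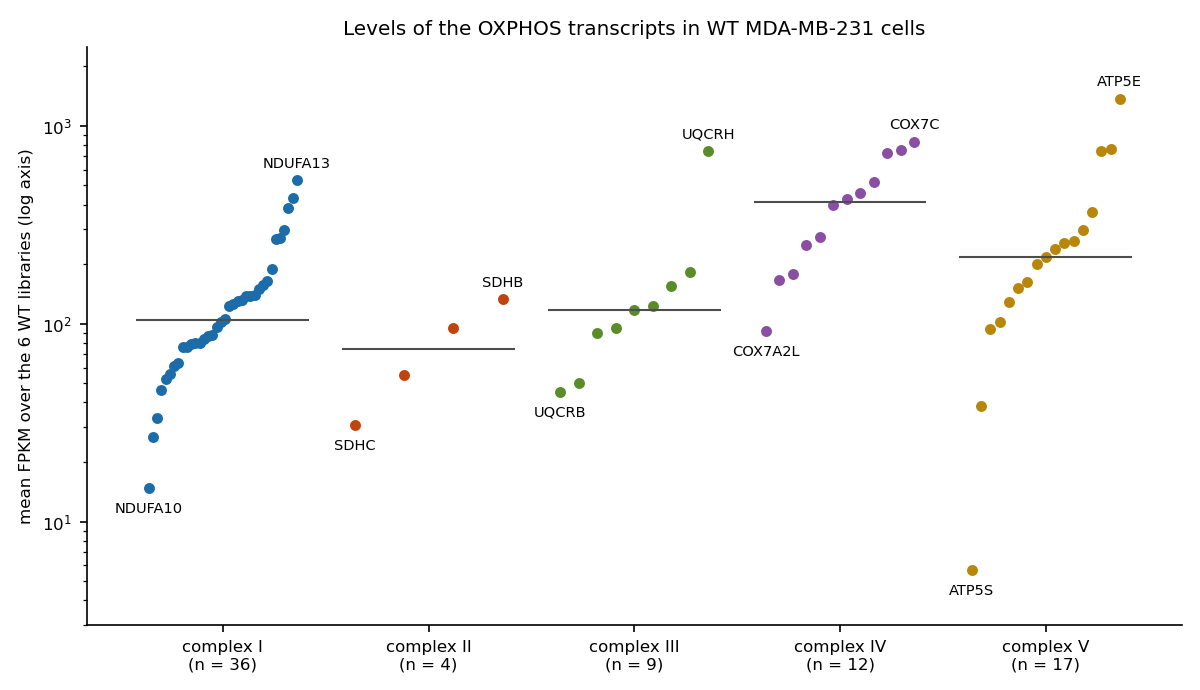
Mean FPKM over the 6 WT libraries (vertical axis, log scale) of each of the 78 OXPHOS transcripts (points), ordered by level within its complex (horizontal axis), with the median of each complex as a line. Members span from ATP5S at 5.68 FPKM to ATP5E at 1372 FPKM, and the complex IV median of 412 FPKM is the highest.

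Most tissue-restricted isoforms were listed at or near 0. A 0 in this table need not mean that a gene was not transcribed, since SLC25A6, a carrier used by nearly all cells, was also listed at 0 in all 12 libraries. COX4I1, the common isoform of a regulatory subunit of cytochrome c oxidase, was at 427 FPKM in WT, whereas its lung-type paralogue COX4I2 was listed at 0 in all 12 libraries. COX6A1 was at 752 FPKM, and its heart and muscle counterpart COX6A2 was listed at 0 in all 12. COX7A2 was at 274 FPKM and COX7A2L at 91.5 FPKM, while the muscle-type COX7A1 did not pass 0.135 FPKM in the 11 libraries. The exception was COX7B2, a paralogue of COX7B that is best known from testis: its WT mean was 166 FPKM, beside 397 FPKM for COX7B. The c-ring of ATP synthase is encoded by 3 genes for the same mature protein, and in WT these stood at 238 FPKM (ATP5G1), 260.2 FPKM (ATP5G2) and 102 FPKM (ATP5G3). ATP5G1 and ATP5G2 overlapped in their ranges over the WT libraries, and ATP5G3 lay below both in every one of them. NDUFA4 was at 62.9 FPKM, and its hypoxia-responsive paralogue NDUFA4L2 did not pass 0.346 FPKM in the 11 libraries. The remaining names below the limit of 1 FPKM were ATP5EP2, ATP5L2, COX6B2, COX8C, NDUFB2-AS1, UQCRBP1 and UQCRHL. The highest of the 11 names just outside the limit was UQCRHL at 0.34 FPKM in WT, and the lowest inside it was ATP5S at 5.68 FPKM.

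Promoters are shown for 6 members whose levels are described in the paragraphs that follow, so that the sequence before the start of each can be seen beside its values: SDHD and UQCC, which were lower after stimulation in both genotypes, COX7B2, which was higher at 24 h, and SDHB, UQCRC1 and NDUFS4, which were higher in KO over the 6 h and 24 h libraries. They run 5′ to 3′ on the gene's strand, from 250 bases before to 50 bases after the RefSeq start (GRCh38.p14), a build other than the hg19 of the expression table. Capitals mark 3 motifs searched on both strands: CCGGAAG for ETS-family factors, GCGCNTGCG, bound by NRF1, and AAGATGGCG, bound by YY1. CCGGAAG is a narrow form of the GGAA core bound by ETS-family factors, and GGAA with other flanking bases was not marked. In these 6 promoters no match of one motif overlapped one of another. SDHD lies on the + strand at chr11:112086623-112086922, SDHB on the - strand at chr1:17053983-17054282, UQCC on the - strand at chr20:35411924-35412223, UQCRC1 on the - strand at chr3:48609597-48609896, NDUFS4 on the + strand at chr5:53560389-53560688 and COX7B2 on the - strand at chr4:46909196-46909495.
SDHD: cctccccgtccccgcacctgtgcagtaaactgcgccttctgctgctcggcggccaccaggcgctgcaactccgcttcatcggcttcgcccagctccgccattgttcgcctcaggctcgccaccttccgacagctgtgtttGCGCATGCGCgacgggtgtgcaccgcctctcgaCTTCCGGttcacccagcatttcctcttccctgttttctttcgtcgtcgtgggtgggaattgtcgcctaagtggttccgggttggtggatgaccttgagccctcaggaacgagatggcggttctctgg
SDHB: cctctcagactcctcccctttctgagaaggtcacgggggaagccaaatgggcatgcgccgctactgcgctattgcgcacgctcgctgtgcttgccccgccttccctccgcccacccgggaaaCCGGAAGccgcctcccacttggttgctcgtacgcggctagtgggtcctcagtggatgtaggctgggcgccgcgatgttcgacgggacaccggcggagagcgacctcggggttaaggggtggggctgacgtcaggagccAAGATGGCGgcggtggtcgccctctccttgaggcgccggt
UQCC: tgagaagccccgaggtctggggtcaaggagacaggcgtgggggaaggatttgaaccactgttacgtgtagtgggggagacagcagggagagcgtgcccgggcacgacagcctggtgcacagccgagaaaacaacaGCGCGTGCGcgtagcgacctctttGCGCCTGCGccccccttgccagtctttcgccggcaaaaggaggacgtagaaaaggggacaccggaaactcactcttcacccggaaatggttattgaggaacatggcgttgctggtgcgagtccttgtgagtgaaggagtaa
UQCRC1: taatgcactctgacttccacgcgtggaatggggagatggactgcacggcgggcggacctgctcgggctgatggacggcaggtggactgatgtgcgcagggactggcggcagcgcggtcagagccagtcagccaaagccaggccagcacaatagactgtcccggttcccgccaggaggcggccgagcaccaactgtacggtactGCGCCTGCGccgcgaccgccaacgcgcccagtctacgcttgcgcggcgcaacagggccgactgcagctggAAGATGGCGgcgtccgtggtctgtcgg
NDUFS4: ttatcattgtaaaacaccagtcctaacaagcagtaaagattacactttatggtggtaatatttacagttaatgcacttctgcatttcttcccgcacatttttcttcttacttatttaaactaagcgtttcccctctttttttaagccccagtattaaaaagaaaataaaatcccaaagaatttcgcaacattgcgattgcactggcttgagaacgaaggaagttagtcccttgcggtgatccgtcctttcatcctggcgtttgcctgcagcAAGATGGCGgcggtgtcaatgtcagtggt
COX7B2: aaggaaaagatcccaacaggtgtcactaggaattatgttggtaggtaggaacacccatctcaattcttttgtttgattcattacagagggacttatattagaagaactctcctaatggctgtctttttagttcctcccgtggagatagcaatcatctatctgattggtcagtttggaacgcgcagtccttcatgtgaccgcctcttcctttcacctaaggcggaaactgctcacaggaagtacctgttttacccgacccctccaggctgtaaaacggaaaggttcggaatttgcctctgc

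SDHD held the ETS-family letters and, on both strands of 1 site, the NRF1 letters, SDHB held the ETS-family and YY1 letters, UQCC held the NRF1 letters at 2 places, UQCRC1 held the NRF1 and YY1 letters, NDUFS4 held the YY1 letters, and COX7B2 held none of the 3 in this window. Of the 78 members, 65 matched a promoter in the RefSeq table. The ETS-family letters were in 19 of the 65 (29.2%), against 10.3% of all 35116 promoters in the table and 20.9% of 8890 promoters of the features tested here. The NRF1 letters were in 22 of the 65 (33.8%), against 7.47% of all and 15.9% of tested promoters, and the YY1 letters in 8 (12.3%), against 1.75% and 4.44%. The ETS-family letters here are CCGGAAG only. GGAA with other flanking bases was not counted. It is present in the lowercase bases of every promoter shown, for example in COX7B2 (caggaag), UQCC (ccggaaa) and NDUFS4 (aaggaag). A promoter without the ETS-family letters may thus still hold an ETS-family core. A match of letters is a description of the sequence, and binding was not measured.

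Over the 11 libraries, members varied little: the difference between the highest and the lowest library, on the log2(FPKM + 1) scale used for every difference below, had a median of 0.37 over the 78 members, from 0.20 (UQCRH) to 1.01 (COX7B2). The same measure had a median of 0.63 over all 11256 features tested, which are those with a mean of at least 1 FPKM in the 11 libraries, and of 0.56 over the 3990 tested features at a mean of 20 FPKM or more. Together the members made up 2.70 to 3.13% of the FPKM sum of a library. In bulk RNA, a change in the RNA of every cell and a change in the share of cells that hold it cannot be told apart.

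**Figure D2:**
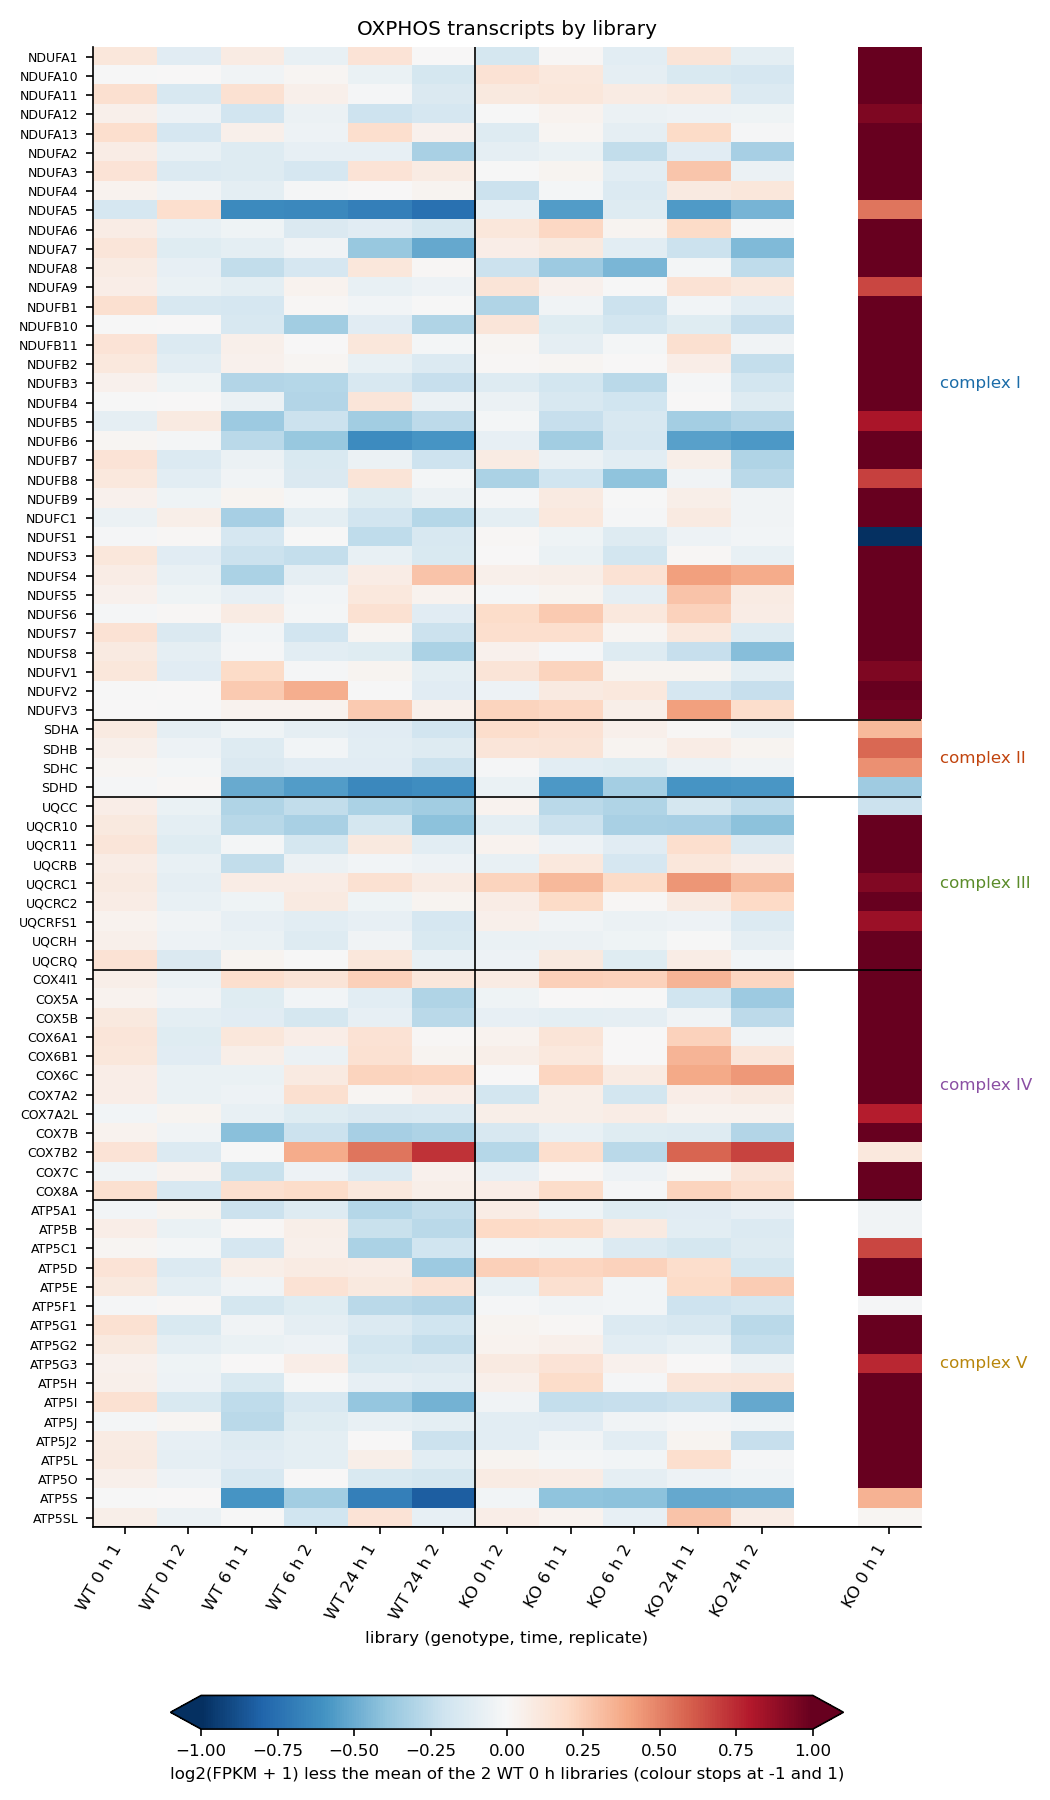
Level of 77 of the 78 OXPHOS transcripts (one line each, grouped by complex) in the 11 libraries and, at the right, in KO 0 h replicate 1, as log2(FPKM + 1) less the mean of the 2 WT 0 h libraries. SDHD, NDUFA5, NDUFB6 and ATP5S are blue (lower) in the WT libraries after 0 h, COX7B2 is red (higher) at 24 h, and most members in KO 0 h replicate 1 are red.

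To ask what stimulation did in WT cells, 6 h was compared with 0 h. Lower levels prevailed among the members that changed: 14 of 78 fell and 1 rose at an adjusted p under 0.05, where p is from limma and adjusted by Benjamini-Hochberg over all 11256 features. Over all tested features, 23.3% rose and 21.1% fell in this comparison, so the share of members that fell (17.9%) was near the background, and the share that rose (1.28%) was below it. The median difference of the members was -0.08, against 0.00 over all features, and ran from -0.14 to -0.02 when each library was left out in turn. With TPM, which sets the FPKM sums equal, the median of all features shifted by -0.12, and 43 members fell and 1 rose, beside 1894 features higher and 3513 lower in all against 2620 and 2373 with FPKM. Among the 3990 features at a mean of 20 FPKM or more, 42.5% were called in either direction, against 14 of the 76 members at that level. Relative to all features, the members' median was -0.08 with FPKM, -0.09 with TPM and -0.16 with quantile normalization.

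SDHD, a membrane anchor of succinate dehydrogenase that helps bind ubiquinone, was at 70.2 and 71.7 FPKM in the WT libraries at 0 h, 49.7 and 47.9 at 6 h and 45.0 and 45.8 at 24 h. Every library at 6 h and 24 h lay below both at 0 h, and the difference at 6 h was -0.53 ± 0.07 (SE; limma adjusted p = 0.00060). NDUFA5, an accessory subunit of the matrix arm of complex I, was at 39.9 and 50.4 FPKM in the WT libraries at 0 h, 28.4 and 28.3 at 6 h and 27.5 and 26.4 at 24 h. Its levels at both later times did not overlap those at 0 h (-0.64 ± 0.14 at 6 h, limma adjusted p = 0.0065). ATP5S was at 7.61 and 7.68 FPKM in the WT libraries at 0 h, 4.73 and 5.81 at 6 h and 4.38 and 3.88 at 24 h, again with no overlap with 0 h (-0.47 ± 0.09 at 6 h, limma adjusted p = 0.0033). These were the 3 largest decreases. The remaining 11 members that fell at 6 h lay between -0.32 (NDUFB6, an accessory subunit of the membrane arm of complex I) and -0.15 (ATP5F1, the b subunit of the stalk of ATP synthase). They were NDUFB3, NDUFB5, NDUFB6, NDUFB10 and NDUFS3 of complex I, UQCC and UQCR10 of complex III, COX7B of complex IV, and ATP5A1, ATP5F1 and ATP5J of complex V. ATP5A1 encodes the alpha subunit of the catalytic head of ATP synthase, UQCR10 a small subunit of complex III, and NDUFS3 a core subunit of the matrix arm of complex I.

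The member that rose at 6 h was NDUFV2, a core subunit of the NADH-oxidising module of complex I that carries an iron-sulphur cluster. It was at 128 and 129.7 FPKM in the WT libraries at 0 h, 155 and 166 at 6 h and 129 and 119 at 24 h, so both 6 h libraries stood above all other WT libraries (0.31 ± 0.06, limma adjusted p = 0.0028). The next largest positive differences, COX7B2 at 0.19 and COX8A at 0.17, missed the threshold with limma adjusted p = 0.40 and 0.21, and in both genes the 6 h libraries overlapped those at 0 h. By complex, 1 of 36 complex I members rose and 6 fell, 1 of 4 fell in complex II, 2 of 9 in complex III, 1 of 12 in complex IV and 4 of 17 in complex V. The complex medians were -0.09, -0.10, -0.10, 0.01 and -0.08 in that order, and that of complex IV became -0.12 with TPM, -0.11 with quantile normalization and -0.07 with the trend on transcript length removed.

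At 24 h in WT decreases again prevailed among the members called. Against 0 h, 19 members fell and 3 rose (24.4% and 3.85%), where 28.2% and 26.5% of all features did, and the members' median was -0.10 against -0.02 for all features. Leaving out 1 library at a time moved this median between -0.17 and -0.04. Relative to all features it was -0.08, as at 6 h. With TPM the members' own median was -0.11 at 24 h beside -0.21 at 6 h, and with quantile normalization -0.07 beside -0.21. Relative to all features, these medians were -0.08 beside -0.09 with TPM and -0.04 beside -0.16 with quantile normalization. At a mean of 20 FPKM or more, 55.6% of features and 21 of 76 members were called. The largest decreases were those of ATP5S (-0.75 ± 0.09, limma adjusted p = 0.00019), NDUFA5 (-0.71 ± 0.14, limma adjusted p = 0.0030) and SDHD (-0.63 ± 0.07, limma adjusted p = 0.00017), so that the mean of SDHD at 24 h was 0.64 of that at 0 h. NDUFB6 was at 97.6 and 94.6 FPKM in the WT libraries at 0 h, 79.7 and 73.6 at 6 h and 61.9 and 63.6 at 24 h, lower at each later time (-0.61 ± 0.07 at 24 h, limma adjusted p = 0.00015). Of the 17 members of complex V 6 fell, namely the catalytic-head subunits ATP5A1 (-0.27), ATP5B (-0.25) and ATP5C1 (-0.26), with ATP5F1, ATP5I and ATP5S. Complex II had decreases in SDHD and SDHC (-0.16, limma adjusted p = 0.028). SDHA, the flavoprotein that oxidises succinate, and SDHB did not pass the threshold (-0.15 and -0.12, limma adjusted p = 0.097 and 0.14). The other members that fell were NDUFA7, NDUFA12, NDUFB3, NDUFB5 and NDUFS1 of complex I, UQCC and UQCR10 of complex III, and COX7A2L and COX7B of complex IV, with differences from -0.14 to -0.44.

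COX7B2 and COX6C were among the 3 members that rose at 24 h against 0 h in WT. COX7B2 was at 148 and 122 FPKM in the WT libraries at 0 h, 134 and 174 at 6 h and 196 and 223 at 24 h. Its 24 h libraries lay above all the others, a difference of 0.63 ± 0.17 from 0 h (limma adjusted p = 0.013). COX6C, a small subunit of cytochrome c oxidase, was at 176 and 161 FPKM in the WT libraries at 0 h, 161 and 179 at 6 h and 197 and 195 at 24 h (0.22 ± 0.07, limma adjusted p = 0.032). The complex medians from 0 h to 24 h were -0.08, -0.16, -0.04, 0.06 and -0.16 for complexes I to V, and only that of complex IV changed sign under another scaling, to -0.03 with the length trend removed.

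**Figure D3:**
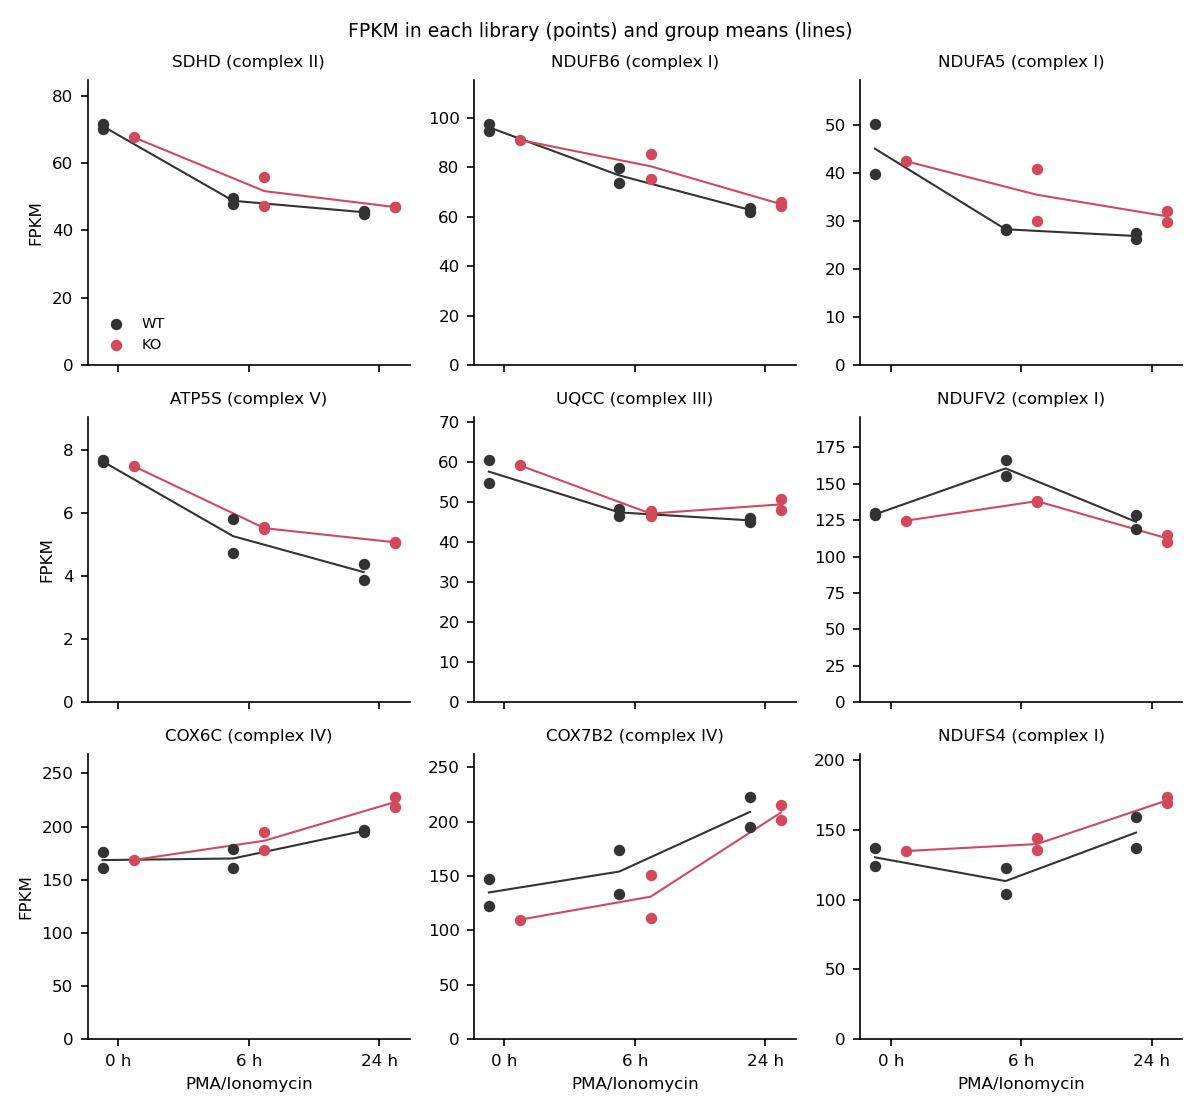
FPKM of 9 members in each library (points) and the group means (lines) at 0, 6 and 24 h of PMA/Ionomycin, evenly spaced, in WT (black) and KO (red, 1 library at 0 h). Group means of SDHD, NDUFB6, NDUFA5, ATP5S and UQCC are lower at 6 h and 24 h than at 0 h in both genotypes, that of NDUFV2 is highest at 6 h, and those of COX6C, COX7B2 and NDUFS4 are highest at 24 h.

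The step from 6 h to 24 h could be compared in both genotypes with 2 libraries in each group and none shared. In WT 4 members rose and 7 fell (5.13% and 8.97%), where 20.5% and 26.3% of all features did. In KO 6 rose and 6 fell (7.69% each), where 22.1% and 27.5% of all features did. Both counts depended on the scaling: with TPM 19 members rose and 3 fell in WT and 21 rose and 3 fell in KO, and with quantile normalization 22 rose and 3 fell in WT and 28 rose and 1 fell in KO. All features moved with TPM too, from 2303 higher and 2964 lower in WT with FPKM to 3208 and 1780, and from 2489 and 3097 to 3219 and 2082 in KO. With quantile normalization their calls were more even, 2651 higher and 2631 lower in WT and 2732 and 2806 in KO. The median of all features in WT shifted by 0.10 with TPM, and the members' median relative to it was 0.01 with FPKM, 0.03 with TPM and 0.14 with quantile normalization. The members' own median was -0.02 in WT and -0.01 in KO with FPKM, and it changed sign to 0.09 in both with TPM and to 0.13 and 0.14 with quantile normalization.

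Across the 78 members, the change in WT and that in KO had a Pearson correlation of 0.886 (over all 11256 features, 0.694), and 65 members had the same sign in both. Genes are not independent replicates, so this is a description. The members called in both genotypes numbered 9 of 11 in WT and 9 of 12 in KO, all in the same direction. ATP5B, ATP5F1, NDUFA7, NDUFB6 and NDUFV2 were among those that fell, and COX6C, NDUFA8 and NDUFS4 among those that rose. NDUFS4, an accessory subunit beside the NADH-oxidising module of complex I, was at 137 and 124 FPKM in the WT libraries at 0 h, 104 and 122 at 6 h and 137 and 159 at 24 h. In KO it was at 135 FPKM in the KO library at 0 h, 136 and 144 at 6 h and 173 and 169 at 24 h. Its 24 h libraries lay above those at 6 h in both genotypes (0.38 in WT and 0.29 in KO, limma adjusted p = 0.012 and 0.035).

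Among the members that fell in this step, NDUFV2 had -0.37 in WT and -0.29 in KO (limma adjusted p = 0.0011 and 0.0034). NDUFA7, an accessory subunit of complex I, had -0.38 and -0.32 (limma adjusted p = 0.023 and 0.040). ATP5B, the catalytic beta subunit of ATP synthase, was at 834 and 759 FPKM in the WT libraries at 0 h, 802 and 827 at 6 h and 679.8 and 661 at 24 h. In KO it was at 915 FPKM in the KO library at 0 h, 903 and 848 at 6 h and 741 and 722 at 24 h. The 24 h libraries of both genotypes lay below those at 6 h (-0.28 and -0.26). The decrease of ATP5F1 (-0.13 in WT) did not outlast every scaling, with a difference of 0.05 after quantile normalization. Calls of other members were also lost under a scaling. NDUFB6 lost its call with TPM and with quantile normalization in both genotypes. NDUFA7 lost its own with both in KO, and with quantile normalization in WT. NDUFV2 lost its call in KO with quantile normalization. With the length trend removed, COX6C lost its call in WT and NDUFS4 in KO. COX7B2 had the largest positive difference in both genotypes, 0.45 ± 0.17 in WT, which missed the threshold (limma adjusted p = 0.060), and 0.68 ± 0.17 in KO (limma adjusted p = 0.010). In KO it was at 110.0 FPKM in the KO library at 0 h, 151 and 111 at 6 h and 202 and 216 at 24 h. Calls in 1 genotype were ATP5G3 (-0.19) and ATP5S (-0.29) in WT, and COX5A (-0.28), NDUFA4 (0.18) and COX7B2 in KO.

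**Figure D4:**
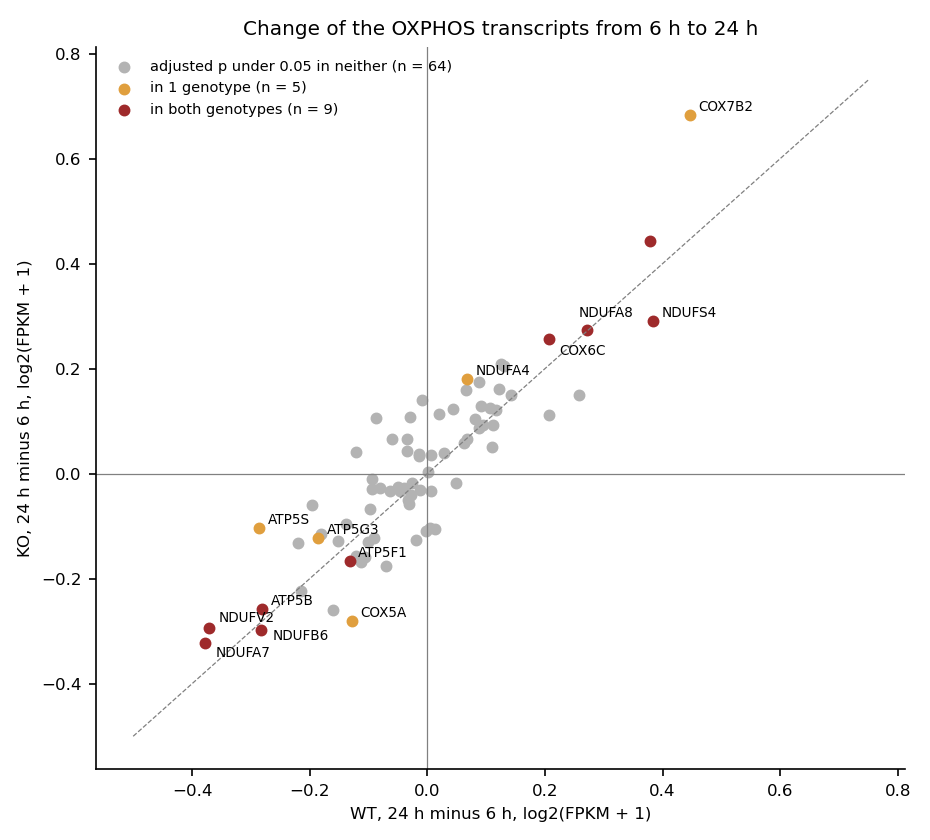
Difference of each of the 78 OXPHOS transcripts between 24 h and 6 h on the log2(FPKM + 1) scale in WT (horizontal axis) and in KO (vertical axis), coloured by the number of genotypes with an adjusted p under 0.05, with equal change as a dashed line. The points lie along the line (Pearson correlation 0.886, n = 78), and 9 members were called in both genotypes with FPKM, not all of them under every scaling.

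Whether the step from 6 h to 24 h differed between the genotypes was tested as an interaction. No member had an unadjusted limma p under 0.05, against 786 of all 11256 features. None passed the adjusted threshold with limma, where 0.142% of all features were higher and 0.0178% lower in KO. The count was 0 under every alternative run with limma. The largest differences of change were 0.24 ± 0.24 (COX7B2), 0.19 ± 0.15 (COX8A) and 0.18 ± 0.13 (ATP5S) on the positive side, and -0.15 ± 0.11 (COX5A), -0.12 ± 0.18 (NDUFS7) and -0.11 ± 0.17 (NDUFA3) on the negative side, with limma adjusted p from 0.87 to 0.99. COX5A and COX8A are subunits of cytochrome c oxidase, NDUFS7 is a core iron-sulphur subunit of complex I, and NDUFA3 is one of its accessory subunits. The members' median was 0.02.

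Comparisons with KO at 0 h rest on 1 library there. At 6 h against 0 h, 4 members fell and none rose (5.13% and 0), where 13.0% and 16.8% of all features did. With TPM 21 fell and none rose, while the calls over all features went from 1895 higher and 1464 lower to 1201 and 2578 and their median shifted by -0.13. SDHD was at 67.6 FPKM in the KO library at 0 h, 47.4 and 55.9 at 6 h and 46.9 and 47.0 at 24 h (-0.39 ± 0.09 at 6 h, limma adjusted p = 0.013). ATP5S was at 7.49 FPKM in the KO library at 0 h, 5.55 and 5.50 at 6 h and 5.06 and 5.09 at 24 h (-0.38 ± 0.11, limma adjusted p = 0.032), and UQCC at 59.0 FPKM in the KO library at 0 h, 47.6 and 46.5 at 6 h and 50.6 and 48.1 at 24 h (-0.32 ± 0.07, limma adjusted p = 0.012). The latter was at 60.3 and 54.7 FPKM in the WT libraries at 0 h, 46.4 and 48.3 at 6 h and 45.8 and 44.9 at 24 h, so that SDHD, ATP5S and UQCC fell at 6 h in both genotypes. The positive differences of COX7B2 (0.23), NDUFB1 (0.17) and COX4I1 (0.16) missed the threshold (limma adjusted p = 0.44, 0.37 and 0.19), and that of COX4I1 was -0.03 with quantile normalization.

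At 24 h against 0 h in KO, 11 members fell and 5 rose (14.1% and 6.41%), where 21.0% and 20.6% of all features did. The decreases were largest for SDHD (-0.52 ± 0.09), ATP5S (-0.48 ± 0.11) and NDUFB6 (-0.48 ± 0.08), with limma adjusted p = 0.0022, 0.0083 and 0.0025. The other 8 were ATP5B, ATP5F1, NDUFA7, NDUFA10, NDUFB5, NDUFB10, NDUFS8 and UQCC. COX7B2 (0.92 ± 0.21), COX6C (0.40 ± 0.09), NDUFS4 (0.34 ± 0.12) and NDUFA4 (0.32) were among those that rose, with limma adjusted p from 0.0073 (COX6C) to 0.048 (NDUFS4). COX6C in KO was at 169 FPKM in the KO library at 0 h, 195 and 178 at 6 h and 219 and 228 at 24 h. Of 22 members called in WT and 16 in KO for this step, 11 were called in both, all in the same direction. ATP5B, ATP5F1, ATP5S, NDUFA7, NDUFB5, NDUFB6, SDHD and UQCC were among those that fell, and COX6C and COX7B2 among those that rose. NDUFA5 in KO was at 42.5 FPKM in the KO library at 0 h, 30.2 and 40.9 at 6 h and 29.9 and 32.1 at 24 h, a difference of -0.44 from 0 h to 24 h that missed the threshold (limma adjusted p = 0.072).

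The comparison of KO with WT at the same time asked whether OXPHOS transcripts differed in cells with less ETS1. At 0 h, 6 h and 24 h no member passed the adjusted threshold with limma in either direction. Over all features 0.657% were higher and 1.03% lower in KO at 0 h, 3.62% and 6.22% at 6 h, and 2.35% and 3.97% at 24 h, with ETS1 among the lower ones (-1.17 ± 0.06 at 6 h, limma adjusted p = 2.0e-05). At an unadjusted limma p under 0.05 there were 9 of the 78 members at 6 h and 12 at 24 h. Of all 11256 features there were 2703 and 2387, a larger share than that of the members at both times. With TPM the calls over all features at 24 h went from 265 higher and 447 lower to 180 and 548, and 1 member was called. With the length trend removed 3 members were called at 6 h and 3 at 24 h. The members' median was 0.01 at 0 h, 0.05 at 6 h and 0.09 at 24 h, against 0.01 over all features at each time, and with TPM it was 0.02, 0.05 and 0.06. With quantile normalization it was -0.005, 0.02 and 0.05. Leaving out 1 library at a time moved the 0 h median between -0.05 and 0.09, that at 6 h between 0.01 and 0.08, and that at 24 h between 0.03 and 0.14, so both signs occurred at 0 h.

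At 6 h both KO libraries lay above both WT libraries in 28 members (35.9%) and below them in 5 (6.41%), where 29.0% and 25.6% of all features did. At 24 h they lay above in 35 members (44.9%) and below in 4 (5.13%), where 26.8% and 25.0% did. The members' median level on the log2(FPKM + 1) scale was then 7.21 and 7.01 in KO and 7.09 and 7.01 in WT. Between replicate libraries this level had an SD of 0.09. Members share the level of their library and are not independent replicates, so these counts are a description. At both times they lay above in 15 members (19.2%) and below in 3 (3.85%), where 14.6% and 14.5% of all features did. The 15 were NDUFA5, NDUFA6, NDUFA12, NDUFC1, NDUFS3 and NDUFS4 of complex I, SDHA and SDHB of complex II, UQCRC1 of complex III, COX7A2L and COX7B of complex IV, and ATP5A1, ATP5B, ATP5F1 and ATP5J of complex V, and the 3 were NDUFA8, NDUFB8 and NDUFV2. All 4 members of complex II had the KO libraries above the WT libraries at 24 h, as had 12 of 36 in complex I, 4 of 9 in complex III, 5 of 12 in complex IV and 10 of 17 in complex V. The 24 h medians for complexes I to V were 0.05, 0.12, 0.05, 0.11 and 0.11, and each stayed positive with TPM, with quantile normalization and with the length trend removed.

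**Figure D5:**
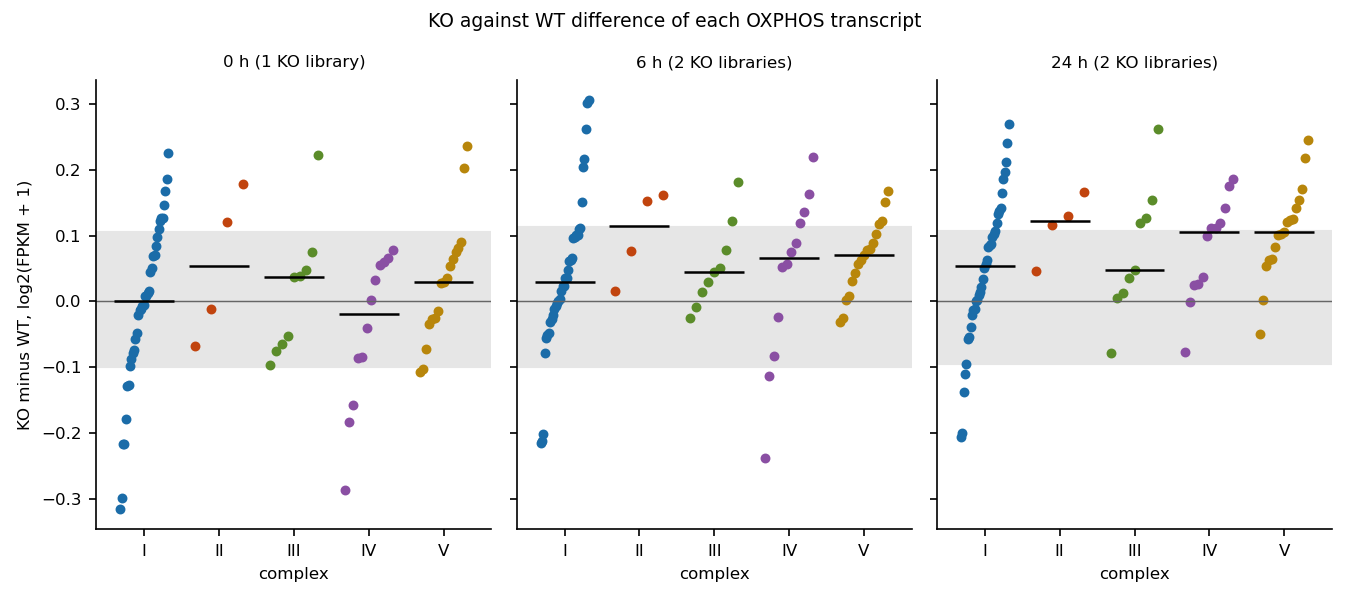
Difference of each of the 78 OXPHOS transcripts between KO and WT on the log2(FPKM + 1) scale at 0, 6 and 24 h (panels) by complex (horizontal axis, points ordered by value), with the median of each complex as a black line and the middle 50% of all 11256 tested features as a grey band. No member passed the adjusted threshold at any time, and the complex medians at 24 h lie between 0.05 and 0.12.

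At 6 h the largest positive differences were those of NDUFS4 (0.31 ± 0.10), NDUFA5 (0.30 ± 0.14) and NDUFC1 (0.26 ± 0.09), and the largest negative ones those of COX7B2 (-0.24 ± 0.17), NDUFV2 (-0.22 ± 0.06) and NDUFB8 (-0.21 ± 0.11). NDUFV2 had the lowest limma adjusted p of these, 0.054. Its KO values of 138 and 139 FPKM lay below the 155 and 166 FPKM of WT. At 24 h NDUFC1 (0.27 ± 0.09), UQCRC1 (0.26 ± 0.08) and ATP5S (0.25 ± 0.09) led on the positive side, and NDUFB8 (-0.21 ± 0.11), NDUFA8 (-0.20 ± 0.09) and NDUFV2 (-0.14 ± 0.06) on the negative side. UQCRC1, a core protein of complex III, was at 184 and 163 FPKM in the WT libraries at 0 h, 183 and 182 at 6 h and 193 and 184 at 24 h. In KO it was at 203 FPKM in the KO library at 0 h, 217 and 198 at 6 h and 236 and 216 at 24 h, above both WT libraries at each time (limma adjusted p = 0.089 at 24 h). At 0 h, against the 1 KO library, the extremes were ATP5D (0.24), NDUFV3 (0.23) and UQCRC1 (0.22) above 0, and NDUFB8 (-0.31), NDUFB1 (-0.30) and COX7B2 (-0.29) below it.

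The mean of the KO against WT differences at 6 h and 24 h uses 4 libraries of each genotype, and was added after the values at single times had been seen. Here 7 members were higher in KO and 1 was lower (8.97% and 1.28%), where 7.44% and 9.93% of all features were. The share that was higher was thus near the background. The 7 were NDUFC1 (0.27 ± 0.06), NDUFS4 (0.26 ± 0.07), NDUFA6 (0.23 ± 0.06), UQCRC1 (0.22 ± 0.05), ATP5H (0.19 ± 0.05), COX7A2L (0.17 ± 0.03) and SDHB (0.16 ± 0.04), with limma adjusted p from 0.0087 (COX7A2L) to 0.044 (ATP5H). NDUFV2 was lower (-0.18 ± 0.04, limma adjusted p = 0.020). NDUFC1 and NDUFA6 are accessory subunits of complex I, and ATP5H is the d subunit in the stalk of ATP synthase. NDUFC1 was at 59.4 and 64.5 FPKM in the WT libraries at 0 h, 49.0 and 57.8 at 6 h and 54.0 and 50.5 at 24 h. In KO it was at 57.7 FPKM in the KO library at 0 h, 66.5 and 61.5 at 6 h and 66.0 and 60.5 at 24 h, so that the KO libraries lay above WT at 6 h and 24 h and below it at 0 h. SDHB was at 144 and 134 FPKM in the WT libraries at 0 h, 127 and 137 at 6 h and 129 and 127 at 24 h. In KO it was at 151 FPKM in the KO library at 0 h, 152 and 142 at 6 h and 146 and 141 at 24 h, above both WT libraries at every time. COX7A2L was at 94.8 and 98.5 FPKM in the WT libraries at 0 h, 91.8 and 88.9 at 6 h and 87.2 and 87.7 at 24 h, and at 100.4 FPKM in the KO library at 0 h, 101 and 102 at 6 h and 99.0 and 98.8 at 24 h. Leaving out 1 library lowered the count of members called from 8 to 2, 3 or 4 for 6 of the 8 libraries that enter this mean.

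Some KO against WT differences went with those of neighbouring genes. NDUFA8 on chromosome 9 (hg19 9:124906337-124922098), which codes for an accessory subunit of complex I, was at 74.6 and 78.8 FPKM in WT and 68.7 and 64.4 FPKM in KO at 6 h. At 24 h it was at 96.0 and 89.6 FPKM in WT and 87.4 and 74.4 FPKM in KO, so that KO lay below WT at both times. Its mean difference at 6 h and 24 h was -0.20, and the 39 tested features within 5 Mb had a median of -0.17. NDUFB8 on chromosome 10 (hg19 10:102283496-102289636), a membrane-arm subunit of complex I, had -0.21, and its 83 neighbours had a median of -0.29. ATP5S on chromosome 14 (hg19 14:50779046-50792946), among the 3 largest positive differences at 24 h (0.25), had 43 neighbours with a median of 0.23 at that time. Of the 8 members called in this mean, the neighbours' medians lay between -0.02 (UQCRC1) and 0.09 (NDUFS4), and that of NDUFV2, which was lower in KO, was 0.07. The copy number of these regions was not tested.

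Of 14 tested regulators of mitochondrial biogenesis, 7 fell and 2 rose between 0 h and 24 h in WT, where 28.2% of all features fell and 26.5% rose. The counts were the same with TPM, quantile normalization and the length trend removed. TFAM, which packages and transcribes mitochondrial DNA, was at 22.1 and 26.1 FPKM in the WT libraries at 0 h, 18.6 and 19.0 at 6 h and 12.03 and 13.8 at 24 h (-0.85 ± 0.12, limma adjusted p = 0.00041). TFB2M, a mitochondrial transcription factor, had -0.55, NRF1 -0.42, GABPA -0.57, YY1 -0.32, MYC -0.87 and the coactivator PPRC1 -0.36, and all of these fell. ESRRA, an orphan nuclear receptor that acts on OXPHOS genes, and TFB1M, which methylates mitochondrial ribosomal RNA, rose (0.48 and 0.40). PPARGC1A, the coactivator PGC-1alpha, did not pass 0.73 FPKM in the 11 libraries. In KO 8 fell and 2 rose over the same step, where 21.0% and 20.6% of all features did. At 6 h against 0 h 2 fell and 2 rose in WT, where 21.1% and 23.3% of all features did.

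In KO against WT, TFAM was higher at 6 h (0.46 ± 0.12, limma adjusted p = 0.043) and at 24 h (0.48 ± 0.12, limma adjusted p = 0.047) and its KO libraries lay above both WT libraries at both times. PPRC1 was lower at both times (-0.28 and -0.43). These genes too lay among neighbours that differed: within 5 Mb of TFAM on chromosome 10 the 12 tested neighbours had a median of 0.41 in the mean of 6 h and 24 h, and the 73 neighbours of PPRC1 on the same chromosome had -0.30. VDAC2, a channel of the outer mitochondrial membrane, was higher in KO at both times, alone among 7 tested carriers and channels (0.47 and 0.54), and its 51 neighbours had a median of 0.35. Between 6 h and 24 h, 5 of the 7 fell in WT, and 4 fell and 1 rose in KO, where 26.3% and 27.5% of all features fell. With TPM 3 fell and 1 rose in each genotype, and with quantile normalization 1 fell and 1 rose in each. Of all features 1780 fell and 3208 rose in WT with TPM, and 2082 and 3219 in KO. With quantile normalization 2631 fell and 2651 rose in WT, and 2806 and 2732 in KO.

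Assembly factors of the complexes showed calls in both directions. Of 41 tested, 7 fell and none rose at 6 h against 0 h in WT, 11 fell and 5 rose at 24 h against 0 h, and 4 fell and 7 rose between 6 h and 24 h. Of all features 21.1%, 28.2% and 26.3% fell and 23.3%, 26.5% and 20.5% rose in these steps. With TPM 21 fell and none rose at 6 h, and 1 fell and 12 rose between 6 h and 24 h. Of all 11256 features 3513 fell and 1894 rose with TPM at 6 h, and 1780 fell and 3208 rose between 6 h and 24 h. LRPPRC, which stabilises mitochondrial messenger RNAs, fell between 6 h and 24 h in WT (-0.63 ± 0.12) and in KO (-0.68 ± 0.12), and NDUFAF1, an assembly factor of complex I, rose (0.57 ± 0.08 and 0.42 ± 0.08). LYRM7, which matures the Rieske protein of complex III, fell at 6 h against 0 h in both (-0.67 in WT and -0.61 in KO). In KO against WT, SCO1, a copper chaperone for complex IV, was lower at 0, 6 and 24 h (-0.35, -0.29 and -0.27), and ATPAF2, an assembly factor of the ATP synthase head, was lower at 6 h and 24 h (-0.30 and -0.32). Both lie on chromosome 17, where the tested neighbours within 5 Mb had medians of -0.24 and -0.23 in the mean of 6 h and 24 h.

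Of 6 tested subunits outside the naming rule, CYCS was the only one called in FPKM, while with quantile normalization 3 of the 6 fell at 6 h against 0 h in WT. Cytochrome c (CYCS), which carries electrons from complex III to complex IV, was at 39.5 and 42.0 FPKM in the WT libraries at 0 h, 38.6 and 36.9 at 6 h and 24.0 and 23.0 at 24 h. It fell between 6 h and 24 h in WT (-0.66 ± 0.07, limma adjusted p = 0.00014) and in KO (-0.69 ± 0.07, limma adjusted p = 9.8e-05). It was higher in KO in the mean of 6 h and 24 h (0.23), and it fell between 0 h and 24 h in WT (-0.77) and KO (-0.62). The other 5 (CYC1, NDUFAB1, USMG5, C14orf2 and ATPIF1) passed the threshold in none of the 11 comparisons with limma on FPKM, although USMG5, a small subunit of ATP synthase, ran from 339 to 521 FPKM over the 11 libraries. Among 21 genes of the citric acid cycle and pyruvate entry, 7 rose and 7 fell between 6 h and 24 h in WT and 6 rose and 7 fell in KO. Of all features 20.5% rose and 26.3% fell in WT, and 22.1% and 27.5% in KO. With TPM 9 of the 21 rose and 3 fell in WT, where 3208 of all features rose and 1780 fell. In KO 6 of the 21 rose and 3 fell with TPM, where 3219 of all features rose and 2082 fell. Citrate synthase (CS) fell (-0.41 in WT and -0.39 in KO), and PC, which makes oxaloacetate from pyruvate, rose (0.85 and 0.81). In KO against WT, IDH2 of this list was higher at 6 h (0.51), where 3.62% of all features were. The 38 tested neighbours of IDH2 within 5 Mb had a median of -0.04. In the mean of 6 h and 24 h, 5 of the 21 were higher in KO and 0 lower, where 7.44% and 9.93% of all features were. Of 78 tested mitochondrial ribosomal proteins 13 fell and 1 rose at 6 h against 0 h in WT, with a median of -0.06, and of 79 tested cytosolic ribosomal proteins 3 fell and 7 rose, with a median of 0.11. Of all features 21.1% fell and 23.3% rose. With TPM 37 of the mitochondrial list fell and none rose, where 3513 of all 11256 features fell and 1894 rose. Of the cytosolic list 5 fell and 2 rose with TPM, with their median at -0.01. With quantile normalization that median was -0.05, so that the direction of the cytosolic list turned with the scaling.

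Short transcripts prevail among the OXPHOS genes: the median length of the canonical transcript in the GENCODE annotation was 804 bases over 77 members with a length and 3282 bases over the tested features with one. Across 10835 features, the difference between 24 h and 0 h in WT had a Spearman correlation of -0.17 with transcript length and 58 members were among the 2169 shortest features, whose median was 0.04. With a smooth trend on length removed, 30 members fell and 1 rose at 6 h against 0 h, and 41 fell and 2 rose at 24 h against 0 h in WT. Over all 10835 features, 3021 fell and 2434 rose at 6 h, and 3500 fell and 2908 rose at 24 h, with a median of -0.04 at each. The 11 members that fell at both 6 h and 24 h in WT (SDHD, NDUFA5, NDUFB3, NDUFB5, NDUFB6, UQCC, UQCR10, COX7B, ATP5A1, ATP5F1 and ATP5S) passed the threshold at both times under TPM and quantile normalization as well. With the length correction 10 of them did so, and NDUFB6, which had no transcript length, could not be tested. These 11 were chosen by their calls in these data, and TPM and quantile normalization lowered the median of all features at 6 h, so this is no separate support. Of the alternatives run (21, or 20 for NDUFB6), the number with a call ran from 14 (ATP5A1) to 21 (SDHD) at 6 h. At 24 h it ran from 11 (NDUFB3) to 21 (SDHD and ATP5S).

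In KO 0 h replicate 1, which stood apart in its markers, 69 of the 78 members (88.5%) lay above all other 11 libraries in FPKM and 1 below, with a median ratio of 2.42 to the median of those libraries, where 35.0% of all tested features lay above and 36.1% below. The FPKM sum of this library was itself higher than the others: with TPM, 33 members lay above and 23 below, with a median ratio of 1.05, against 7.81% and 75.6% of all features and a ratio of 0.41. The members made up 3.745% of its FPKM sum, against 2.70 to 3.13% in the other 11. NDUFB9 was at 623 FPKM against at most 94.8 elsewhere, COX7C at 3728 against at most 939.9, and COX6C at 944 against at most 228. NDUFS1, the largest subunit of complex I, was the member below all others, at 25.1 FPKM against at least 47.2. SDHD was at 55.1 FPKM and COX7B2 at 145 FPKM, within the range of the other libraries. With this library in the fit, the members' median for KO against WT at 0 h was 0.62 rather than 0.01.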

How the data were processed

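Poly(A) RNA from WT and KO MDA-MB-231 cells was sequenced by the authors, with 2 biological replicates for each genotype and time. The deposited values are FPKM per gene, which the authors computed with Cufflinks and Cuffdiff after alignment to hg19 with TopHat. Tools named in the submitters' processing notes also include FastQC, cutadapt and Bowtie. Counting of shared reads, strand settings and read totals are not given in the sources used here, so no interval for counting error could be formed. Columns were matched to samples by name. The names of 2 KO columns, 61_2 and 01_2, each match the label left without a column.

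From these values, log2(FPKM + 1) was fitted in limma 3.58.1 (lmFit, eBayes with trend, R 4.3.3) over 11 libraries and 11256 features with a mean of at least 1 FPKM, with 1 term per genotype and time and 5 residual degrees of freedom. P-values were adjusted by Benjamini-Hochberg over all tested features, and an adjusted p under 0.05 was called. There were 11 comparisons, of which KO at 6 h and 24 h against 0 h and the KO against WT mean were added after seeing the data. In simulated data built on these libraries, 200 features changed by 1 on the log2 scale were recovered at 92.5 to 96.5% across the 7 comparisons simulated. Each simulated feature kept its mean and had independent normal noise, with the spreads shuffled over the features. The link of spread with level and shifts shared by a library were thus not simulated. Every member differed by less than that in every comparison, and recovery of smaller changes was not simulated. TPM was obtained by scaling each library's FPKM sum, and lengths of canonical transcripts came from the GENCODE annotation of GRCh37. Tables were handled with Python 3.11.15 and pandas 2.3.3.

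The members and lists were chosen with earlier results of these data known. Members named are the 3 highest and 3 lowest differences in each comparison, the highest member of each complex, the SDH genes, sets of isoforms and members with an adjusted p under 0.05 between KO and WT in the same direction at 6 h and 24 h, of which there were none. Other members named because they were called, had non-overlapping groups or were lowest in their complex were chosen after their values were seen. Values of 1 member are not reported here, although counts and medians over the members include it. Also chosen after their values were seen were the genes singled out from the lists. The lists were assembly factors, biogenesis regulators, citric acid cycle genes, subunits outside the naming rule, carriers, both sets of ribosomal proteins, and markers of MDA-MB-231, luminal and gut cells. Their counts under other scalings, and the TPM view of KO 0 h replicate 1, were chosen after seeing the data. Promoters and motif letters were read from a RefSeq table of GRCh38.p14.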

Additional observations from a re-analysis of the deposited data

Results flagged for a closer look

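The library labelled KO 0 h replicate 1, kept out of every comparison, held transcripts of 4 OXPHOS paralogues that were below the limit of 1 FPKM in the other 11 libraries. NDUFA4L2 was at 201.8 FPKM, against at most 0.346 in the others. COX7A1, the muscle-type isoform of a cytochrome c oxidase subunit, was at 10.88 FPKM against at most 0.135. UQCRHL, a retrogene of UQCRH, was at 2.836 FPKM against at most 0.653. COX6B2, a testis isoform, was at 2.449 FPKM against at most 0.264. Each was picked out because it was above the highest value in every library of the comparisons. Markers of gut epithelium were high in the same library, and their part in these values was not tested.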

How the results depend on the processing

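Adding KO 0 h replicate 1 to the fit lowered the members called to 1 for WT at 6 h against 0 h, 2 for WT at 24 h against 0 h, 0 and 1 for 24 h against 6 h in WT and KO, 1 and 1 for KO at 6 h and 24 h against 0 h, and 0 for the KO against WT mean. The members' median became 0.62 for KO against WT at 0 h, -0.70 for KO at 6 h and -0.67 for KO at 24 h against 0 h. It turned the sign of NDUFB8 (0.18) and NDUFB1 (1.04) in KO against WT at 0 h, of NDUFB1 (-1.17) and COX4I1 (-0.90) in KO at 6 h against 0 h, and of NDUFS4 (-0.23), NDUFA4 (-0.70) and COX6C (-0.84) in KO at 24 h against 0 h.

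With TPM, calls were 44 (median -0.21) for WT at 6 h against 0 h, 22 (0.095) and 24 (0.085) for 24 h against 6 h in WT and KO, 21 (-0.16) for KO at 6 h against 0 h, and 1 and 1 for KO against WT at 6 h and 24 h. With quantile normalization these were 40 (-0.21), 25 (0.13), 29 (0.14), 22 (-0.17), 1 and 1, and ATP5F1 in WT from 6 h to 24 h (0.052) and COX4I1 in KO at 6 h (-0.030) changed sign. With the length trend removed, calls were 31 for WT at 6 h and 43 at 24 h against 0 h, 3 and 3 for KO against WT at 6 h and 24 h, 8 for KO at 6 h and 28 (median -0.12) at 24 h against 0 h, and 21 for the KO against WT mean. With no filter, 1 and 1 members were called in KO against WT at 6 h and 24 h and 5 in the mean, and with eBayes without trend 5 in the mean. Fits on the compared libraries alone gave 9 for WT at 6 h, 0 for KO at 6 h and 6 for KO at 24 h against 0 h. The cause of these shifts was not tested.

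With a replicate block, calls were 34 for WT at 24 h against 0 h, 18 and 21 for 24 h against 6 h in WT and KO, 3, 7 and 4 for KO against WT at 0, 6 and 24 h, 9 and 27 for KO at 6 h and 24 h against 0 h, and 16 for the mean. The labels link same-numbered samples by a number alone. The correlation of their deviations over all features ran from -0.07 to 0.20. Over the members it ran from -0.17 (WT and KO at 6 h) to 0.69 (WT and KO at 24 h), and whether such samples shared a batch was not tested.

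Leaving out 1 library at a time gave 8 to 15 calls for WT at 6 h against 0 h, 13 to 23 for WT at 24 h against 0 h, 4 to 11 for WT and 6 to 13 for KO between 6 h and 24 h, 2 to 4 and 9 to 15 for KO at 6 h and 24 h against 0 h, 2 to 8 for the mean, and 0 for the others. For WT at 6 h against 0 h the count was 9 without WT 0 h replicate 1 and 8 without WT 6 h replicate 1. For WT between 6 h and 24 h it was 6 without either WT 6 h replicate 1 or WT 24 h replicate 1, 7 without WT 6 h replicate 2 and 4 without WT 24 h replicate 2. It was 13 without WT 24 h replicate 2 for WT at 24 h against 0 h, 6 without KO 6 h replicate 2 for KO between 6 h and 24 h, 2 without KO 6 h replicate 1 for KO at 6 h, and 9 without KO 24 h replicate 2 for KO at 24 h against 0 h. For the mean it was 2 without WT 6 h replicate 1, WT 24 h replicate 1 or KO 6 h replicate 1, 3 without WT 24 h replicate 2 or KO 24 h replicate 1, and 4 without KO 24 h replicate 2. COX7B2 ran from -0.0034 to 0.37 for WT at 6 h against 0 h, and in the interaction NDUFA3 ran from -0.27 to 0.059 and NDUFS7 from -0.24 to 0.0018. FPKM keep no depth, so the counting error of low members such as ATP5S could not be set apart from the spread between libraries.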
